A study of Danio rerio with 9 samples.

Results

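The Wnt signaling genes followed across the arrays of this series were the secreted antagonist gene *sfrp1b*, the ligand genes *wnt5a* and *wnt3a*, the transcription factor gene *tcf7* and the feedback inhibitor genes *nkd1* and *nkd2b*. Each was found on the array through its RefSeq mRNA identifier (*sfrp1b*, NM_001083571; *wnt5a*, NM_001079834; *wnt3a*, NM_001007185; *tcf7*, NM_001012389; *nkd1*, NM_001043333; *nkd2b*, NM_001097586). Each had 1 transcript under such an identifier, so 6 of 37176 transcripts are described here. Further transcripts of these genes may be on the array under identifiers that were not assigned to a gene. Cut tails came from wild type AB zebrafish larvae amputated just behind the notochord at 2 days post-fertilization (dpf), whose posterior tissue was collected at 3 dpf, which is 1 day post-amputation (dpa). Uncut tails were the posterior tissue of wild type AB siblings that were not amputated, also at 3 dpf. There were 5 arrays of cut and 4 of uncut tails, with about 150 tails pooled per condition, and nothing states whether the replicates were separate pools, so p-values measure the spread between these arrays, which may be technical.

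Wnt ligands are secreted proteins that bind Frizzled receptors with Lrp co-receptors on neighboring cells. In the branch of the pathway that runs through β-catenin, Dishevelled relays the signal, β-catenin accumulates and TCF/LEF factors switch on target genes, whereas other ligands act mainly without β-catenin and steer cell movement and polarity. Secreted Frizzled-related proteins capture ligands outside the cell, and Naked cuticle proteins bind Dishevelled inside it. In adult zebrafish, Wnt/β-catenin signaling is required for regrowth of the amputated caudal fin. In larval tails amputated and examined at the stages used here, the authors did not detect a rise in Wnt pathway activity. Their readout was a GFP reporter gene controlled by TCF/LEF binding sites.

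All values are log2 expression values of an array with 1 color, on which an increase of 1 is a doubling of the signal. Levels of different genes were not compared, as probes differ in brightness. The RNA came from whole tissue, in which more cells of a type and more RNA per cell cannot be told apart. Changes are given as cut over uncut, and a transcript was called where its fold change was at least 1.5 with an adjusted p of at most 0.1 (limma, Benjamini-Hochberg over all 37176 transcripts). By this rule 259 transcripts were called, 0.697% of all: 174 higher in cut tails (0.468%) and 85 lower (0.229%). With each array centered on its median, 56.6% of the calls were higher, against 67.2% in the values as provided. Of 17 listed tail and fin fold markers, 1 was measured, the posterior Hox gene *hoxc13b*. It had a log2 value of 10.84 ± 0.18 in cut tails (SD, n = 5) and 10.65 ± 0.20 in uncut tails (SD, n = 4). With no other tissue in the series, these values cannot test the tissue label. None of 13 listed wound epidermis and blastema markers had a transcript with an assigned gene.

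Arrays differed in marker genes of other cell types. Of 16 listed lens genes, 6 were measured, and their summed linear signal reached 22800 in cut replicate 3 and 3210 in replicate 5. The remaining cut arrays had 1090 to 1380, and the uncut arrays had 846 to 1310. Of 10 listed macrophage and neutrophil genes, 3 were measured (*mfap4.1*, *csf1ra* and *spi1b*), and their summed signal was 1800 to 5420 in cut tails and 861 to 1350 in uncut tails, without overlap. Their log2 fold changes were 1.59, 0.32 and 1.25 in that order, and none was called. Of 9 listed endothelial genes, 3 were measured, with a summed signal of 472 to 768 in cut tails and 787 to 1160 in uncut tails. This difference lay in 1 gene, *egfl7* (log2 fold change -0.74, adjusted p = 0.215 from limma), while *cdh5* and *kdr* had -0.10 and 0.10, and the median of the 3 overlapped between the groups. *egfl7* was not called here, whereas the authors list it as lower after amputation from the same arrays. Cut replicate 3 also stood apart in the 2 measured neural genes, with a sum of 1610 against 517 to 666 in all other arrays, and in the 1 measured exocrine pancreas gene, with 3140 against 394 to 871. Of the 2 measured muscle genes, the troponin gene *tnni1b* was called higher in cut tails (log2 fold change 0.67, adjusted p = 0.0961 from limma). The other, *acta1b*, had 0.76 and was not called (adjusted p = 0.491 from limma). Their summed signal overlapped, at 4020 to 9810 in cut tails and 2420 to 7420 in uncut tails. The 1 measured erythrocyte gene, *hbae3*, ran from 868 to 6110 in cut tails and from 1140 to 5300 in uncut tails. Array values have no zero, so that absence of a marker cannot be read from them. The part of these marker groups in the Wnt gene values was not tested. Results for each Wnt gene are therefore also given without cut replicates 3 and 5 where these arrays moved them.

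Of the 6 Wnt genes, 1 was called, *sfrp1b*, and it was higher in cut tails, as were 0.563% of the 2663 transcripts with an assigned gene. In all 5 cut arrays its level exceeded that of every uncut array. This was the case for 2.83% of all transcripts and for 109 of the 2663 with an assigned gene. *wnt5a* had a fold change of 1.77 but scattered widely and was not called. *tcf7*, *wnt3a*, *nkd1* and *nkd2b* had fold changes between 0.861 and 1.21 and were not called either. The median log2 fold change of the 6 was 0.19, against 0.04 over all transcripts and 0.08 over those with an assigned gene. A fold of at least 1.5, without regard to the p, was found for *sfrp1b* and *wnt5a* among the 6 and for 6.22% of all transcripts in either direction. The genes had been chosen with earlier results of these arrays known. Whether the changes of the 6 genes differed from each other was not tested. These calls are from a fit without a block for replicate number. With such a block, over the 8 arrays whose number occurs in both groups, *wnt5a* was called and *sfrp1b* was not. Both calls thus depend on whether the numbers pair the arrays, which no label states.

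**Figure D1:**
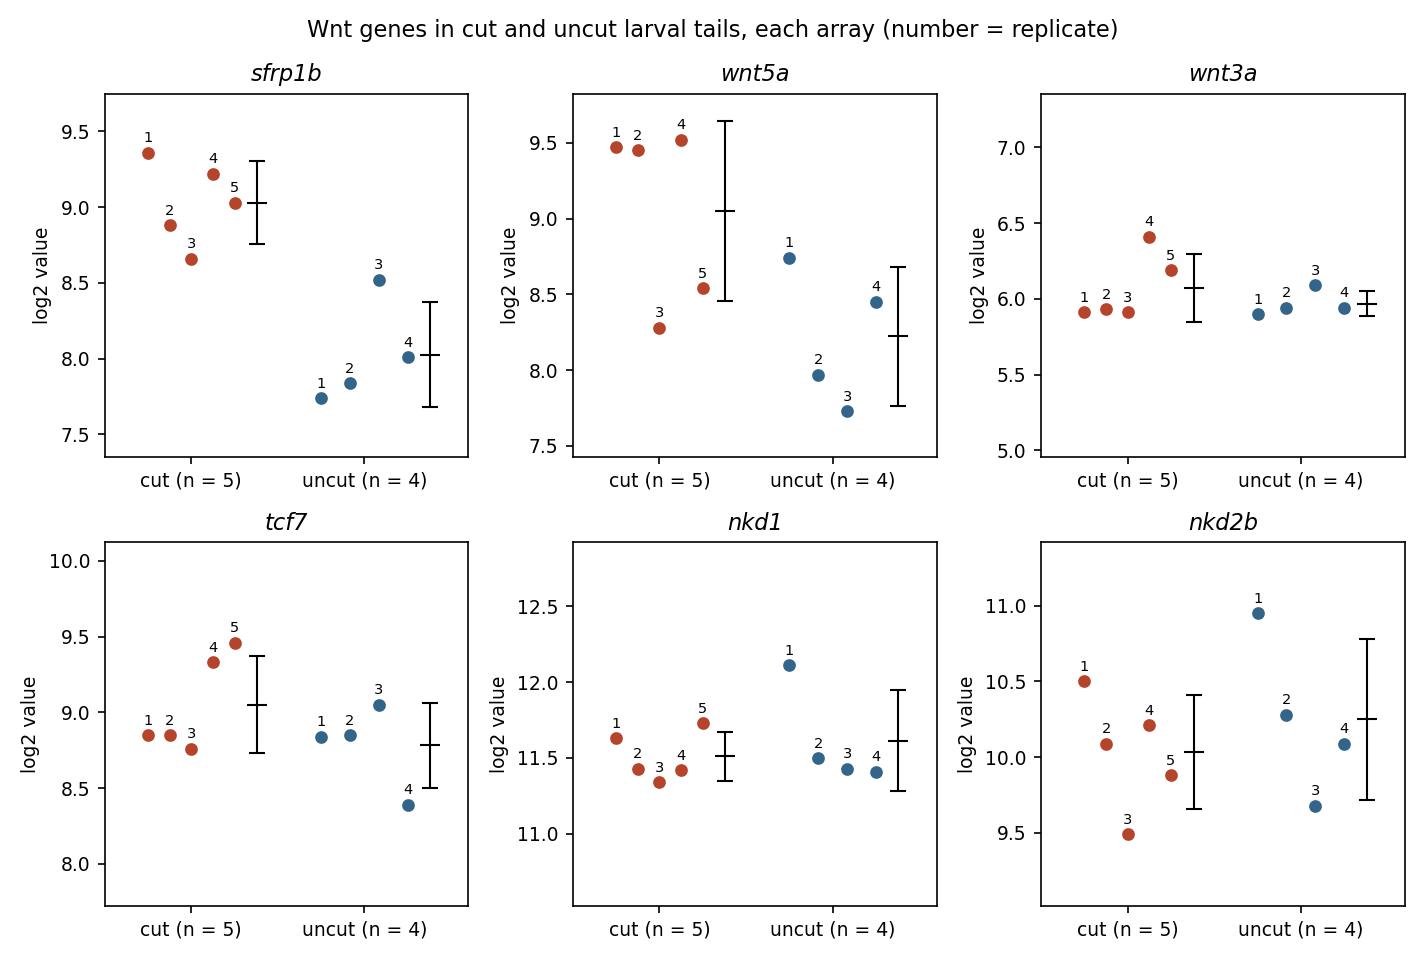
Log2 value of each Wnt gene (y axis) in the 5 cut arrays (left, red) and the 4 uncut arrays (right, blue); numbers are replicate numbers, and the black bar beside each group is its mean ± SD. All panels span the same log2 range. The groups do not overlap for *sfrp1b*, with the lowest cut array at 8.66 and the highest uncut array at 8.52, and they overlap for the other genes.

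*sfrp1b* encodes a secreted Frizzled-related protein, an extracellular antagonist that binds Wnt ligands. Its log2 values in cut tails were 9.36, 8.88, 8.66, 9.22 and 9.03 in replicates 1 to 5, and in uncut tails 7.74, 7.84, 8.52 and 8.01 in replicates 1 to 4. Uncut replicate 3 stood above the other uncut arrays and came within 0.14 of cut replicate 3, the lowest of the cut arrays. The means were 9.03 ± 0.28 in cut tails (SD, n = 5) and 8.03 ± 0.35 in uncut tails (SD, n = 4), a log2 fold change of 1.00 with an SE of 0.19 (limma, adjusted p = 0.0763). On the linear scale this is a 2.00-fold rise with a 95% confidence interval of 1.49 to 2.69. Permuting the 9 values gave a two-sided exact p = 0.00794, the smallest that 5 arrays against 4 can give. Among the 174 transcripts called higher, *sfrp1b* was number 96 by fold change. The authors also list *sfrp1b* as higher after amputation, with a fold change of 2.00. Their list comes from the same arrays, so the call and the tests here are not independent support for it.

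The size of the *sfrp1b* rise moved little with the choice of arrays, while its call did not hold. With single arrays left out, the log2 fold change ran from 0.91 to 1.17, and the adjusted p from 0.0190 to 0.290. The call remained without cut replicate 3 (adjusted p = 0.0725) and without uncut replicate 3 (adjusted p = 0.0190) and was lost without each of the other 7 arrays, least closely without uncut replicate 2 (adjusted p = 0.290) and uncut replicate 4 (adjusted p = 0.262). Without uncut replicate 2 or 4 its log2 fold change was 0.94 or 0.99, while calls over all transcripts fell from 259 to 56 or 54. Without cut replicates 3 and 5, the arrays with the most lens signal, the log2 fold change was 1.12 (adjusted p = 0.136 from limma). With a block for replicate number over the 8 arrays of shared numbers it was 1.00, and *sfrp1b* was not called (limma, adjusted p = 0.108).

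**Figure D2:**
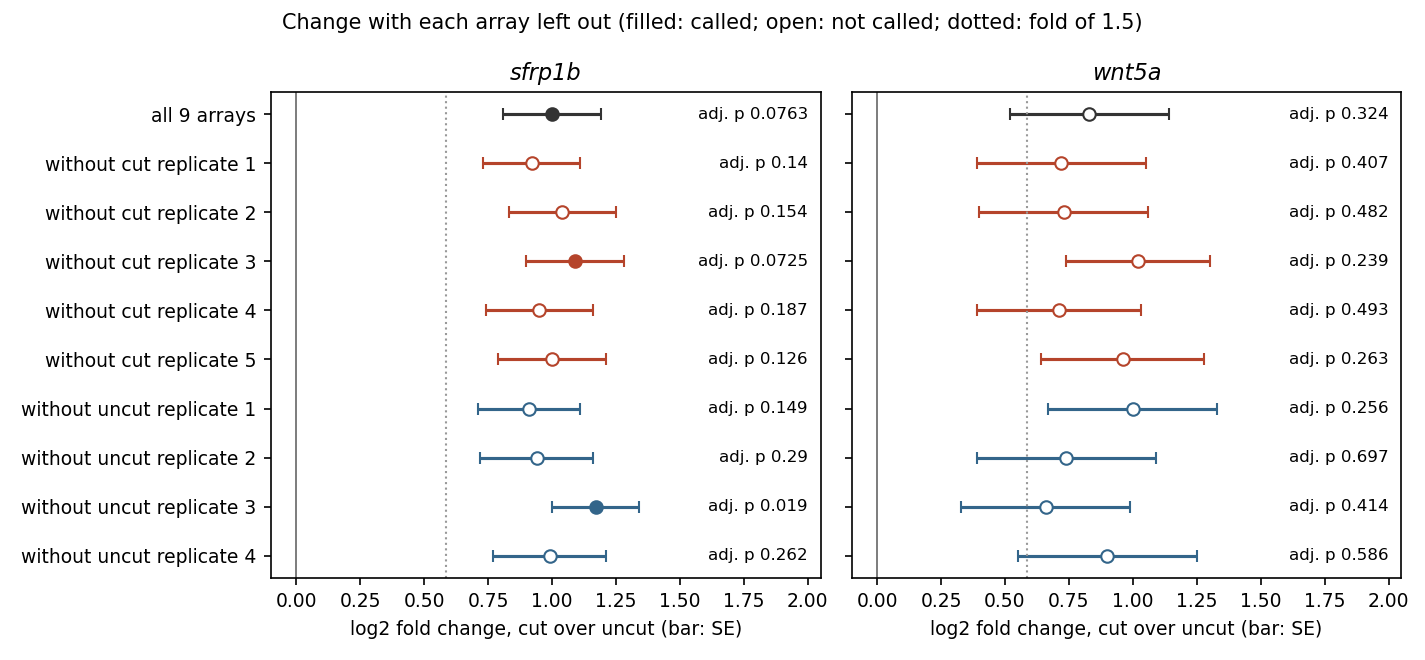
Log2 fold change of *sfrp1b* and *wnt5a*, cut over uncut (x axis, bars are the SE), with all 9 arrays and with each array left out in turn (rows; red, a cut array left out; blue, an uncut array left out). Filled points were called and open points were not, and the adjusted p from limma stands at the right. *sfrp1b* stays between 0.91 and 1.17 and *wnt5a* between 0.66 and 1.02.

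*wnt5a* encodes a ligand that acts mainly without β-catenin. Its log2 values in cut tails were 9.47, 9.45, 8.28, 9.52 and 8.54 in replicates 1 to 5, and in uncut tails 8.74, 7.97, 7.73 and 8.45 in replicates 1 to 4. Cut replicates 1, 2 and 4 lay close together and above every uncut array, whereas cut replicates 3 and 5 fell within the uncut range. Among the uncut arrays replicate 3 was the lowest. All 5 cut arrays exceeded the uncut mean. The means were 9.05 ± 0.59 in cut tails (SD, n = 5) and 8.22 ± 0.45 in uncut tails (SD, n = 4), a log2 fold change of 0.83 with an SE of 0.31 (limma, adjusted p = 0.324). The 95% interval of the log2 fold change was 0.14 to 1.52, not corrected for the number of transcripts, and the two-sided exact permutation test gave p = 0.0714. The unadjusted p from limma was 0.0236, and 12.2% of all transcripts had one under 0.05, 6.46% with higher values in cut tails.

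Both cut arrays in which *wnt5a* was low are the ones with the most lens signal, a sum of 22800 in replicate 3 and 3210 in replicate 5. Uncut replicate 3, the lowest uncut array for *wnt5a*, had a lens sum of 1310. The part of lens signal or of replicate number in the *wnt5a* values was not tested. As cut replicates 3 and 5 are the lowest of the cut arrays for *wnt5a*, leaving them out could only raise the fold change. Without them the log2 fold change was 1.25 with an SE of 0.23 (limma, adjusted p = 0.130), and *wnt5a* was still not called. With each array weighted by its agreement with the others, the log2 fold change was 0.96. *wnt5a* was then called (limma, adjusted p = 0.0545), as were 7.07% of all transcripts. The spread of *wnt5a* within the groups, an SD of 0.54, was at percentile 92.6 of all transcripts, compared with percentile 63.6 for *sfrp1b* (SD 0.31). In the fit without a block, a change of the size measured for *wnt5a* thus stands beside a replicate spread that few transcripts of the array exceeded. With a block for replicate number over the 8 arrays of shared numbers, the SE was 0.17. *wnt5a* was then called (limma, adjusted p = 0.0795), as were 1.81% of all transcripts. No label or method says what a shared number means. In deviations from the group means, each of the 8 arrays was closest to its own number among arrays of the other condition. Same-numbered arrays correlated at 0.58, 0.09, 0.25 and 0.32 over the 9 arrays.

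*wnt3a* encodes a ligand of the β-catenin branch that acts in the growing tail bud of the embryo. Its log2 values were 5.91, 5.93, 5.91, 6.41 and 6.19 in cut replicates 1 to 5 and 5.90, 5.94, 6.09 and 5.94 in uncut replicates 1 to 4. Cut replicates 4 and 5 were above all uncut arrays and the other 3 cut arrays were level with them. The means were 6.07 ± 0.22 in cut tails (SD, n = 5) and 5.97 ± 0.08 in uncut tails (SD, n = 4), a log2 fold change of 0.10 with an SE of 0.13 (limma, adjusted p = 0.808 and two-sided exact permutation p = 0.508). The 95% interval for the fold, 0.877 to 1.31, excludes a change of 1.5 in either direction. The signal of this transcript was at percentile 13.4 of the array, and whether it lay above background was not analysed, so this interval concerns the signal as measured.

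*tcf7* encodes a TCF/LEF transcription factor, a partner of β-catenin on target genes. Its log2 values were 8.85, 8.85, 8.76, 9.33 and 9.46 in cut replicates 1 to 5 and 8.84, 8.85, 9.05 and 8.39 in uncut replicates 1 to 4. As for *wnt3a*, cut replicates 4 and 5 were above every uncut array, while the other cut arrays lay among the uncut ones. The means were 9.05 ± 0.32 in cut tails (SD, n = 5) and 8.78 ± 0.28 in uncut tails (SD, n = 4), a log2 fold change of 0.27 with an SE of 0.19 (limma, adjusted p = 0.617 and two-sided exact permutation p = 0.254). The 95% interval for the fold, 0.899 to 1.62, holds both no change and a rise of 1.5. The log2 fold change was 0.14 without uncut replicate 4, the array in which *tcf7* was lowest, and 0.17 without cut replicate 5, the array in which it was highest.

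*nkd1* encodes a Naked cuticle protein, an inhibitor that binds Dishevelled and is itself a known target of Wnt/β-catenin signaling. Its log2 values were 11.63, 11.43, 11.34, 11.42 and 11.73 in cut replicates 1 to 5 and 12.11, 11.50, 11.43 and 11.41 in uncut replicates 1 to 4. Uncut replicate 1 was higher than all other arrays, and the remaining 8 arrays lay between 11.34 and 11.73. The means were 11.51 ± 0.16 in cut tails (SD, n = 5) and 11.61 ± 0.33 in uncut tails (SD, n = 4), a log2 fold change of -0.10 with an SE of 0.16 (limma, adjusted p = 0.855 and two-sided exact permutation p = 0.683). The direction rested on uncut replicate 1, without which the log2 fold change was 0.06. The 95% interval for the fold was 0.723 to 1.20, which excludes a change of 1.5 in either direction for this transcript.

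*nkd2b* encodes another Naked cuticle protein. Its log2 values were 10.50, 10.09, 9.49, 10.21 and 9.88 in cut replicates 1 to 5 and 10.95, 10.28, 9.68 and 10.09 in uncut replicates 1 to 4. The groups overlapped over most of their range, and uncut replicate 1 was again the highest of all arrays. The means were 10.03 ± 0.38 in cut tails (SD, n = 5) and 10.25 ± 0.53 in uncut tails (SD, n = 4), a log2 fold change of -0.22 with an SE of 0.27 (limma, adjusted p = 0.796 and two-sided exact permutation p = 0.508). The sign turned with the arrays used, as the log2 fold change was 0.02 once uncut replicate 1 was left out and also 0.02 when cut replicates 3 and 5 were. In the fit without a block, the 95% interval for the fold, 0.572 to 1.30, reaches past a fall of 1.5-fold but not to a rise of that size. Replicate 1 was the highest and replicate 3 the lowest in both groups. A block for replicate number over the 8 arrays of shared numbers gave a log2 fold change of -0.18 with an SE of 0.13 (limma, adjusted p = 0.509).

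The named Wnt genes were set beside the other Wnt genes that could be named on the array. Of 150 listed genes of Wnt signaling, 25 had a transcript with an assigned gene: the 6 above and 19 others. As 7.16% of all transcripts had an assigned gene, the other listed genes may be on the array under unassigned identifiers, and they are not analysed here. The authors list the antagonist genes *dkk3b* as higher and *dkk1b* as lower after amputation, and neither had an assigned transcript here. Of the 19 others, 0 were called in limma at an adjusted p of at most 0.1 and 2, *sfrp2* and *wnt4*, had an unadjusted p under 0.05, while 0.697% of all transcripts were called and 12.2% had such an unadjusted p. Their median log2 fold change was 0.00, compared with 0.04 over all transcripts, and 9 changes were positive and 10 negative. Over the 2663 transcripts with an assigned gene the median was 0.08, with 1727 positive and 936 negative. For 13 of the 19 the 95% confidence interval lay within a fold of 1.5 in both directions, as it did for 2 of the 6 genes above, *wnt3a* and *nkd1*. The same held for 54.7% of all transcripts and for 1664 of the 2663 with an assigned gene.

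**Figure D3:**
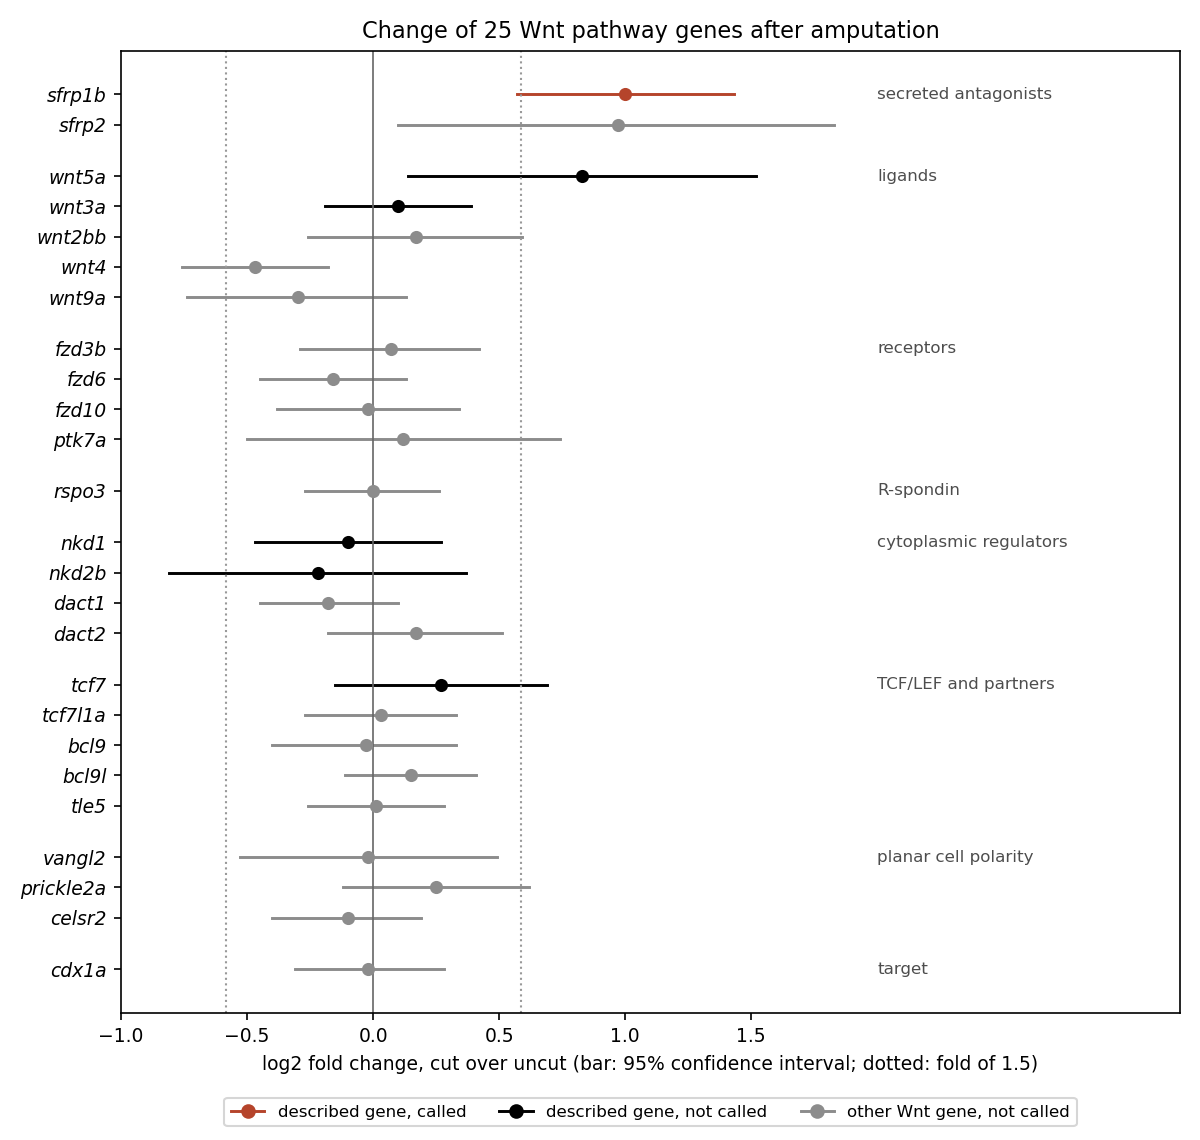
Log2 fold change, cut over uncut (x axis), with its 95% confidence interval for the 25 Wnt genes with an assigned transcript (rows, grouped by role); dotted lines mark a fold of 1.5 in either direction. *sfrp1b* (red) is the gene that was called in the fit without a block, at 1.00. *sfrp2* is at 0.97 and *wnt5a* at 0.83 beside wide intervals, and *wnt4* is at -0.47.

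Of the 2 measured genes of secreted Frizzled-related proteins, *sfrp1b* was called and *sfrp2* was not. For *sfrp2* the log2 values were 10.22, 10.02, 9.60, 9.53 and 9.69 in cut replicates 1 to 5 and 9.57, 8.71, 9.59 and 7.51 in uncut replicates 1 to 4. The cut arrays were close together, whereas the uncut arrays spanned 2.09 on the log2 scale and reached the lower end of the cut range in replicates 1 and 3. The log2 fold change was 0.97 with an SE of 0.39 (limma, adjusted p = 0.358) and 0.52 without uncut replicate 4, the lowest array. With array weights it was 1.56, and *sfrp2* was called (limma, adjusted p = 0.0514), as were 7.07% of all transcripts. Uncut replicate 4 had the largest of these weights, 3.02. The size of the *sfrp2* difference thus depended on uncut replicate 4.

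Among the ligands, *wnt4* was the 1 transcript of the 25 in which every cut array lay below every uncut array. This was so in 1.89% of all transcripts and in 32 of the 2663 with an assigned gene. With *sfrp1b*, 2 of the 25 had groups without overlap, against 4.72% of all transcripts in either direction. The log2 values of *wnt4* were 10.85, 10.83, 10.99, 10.54 and 10.63 in cut replicates 1 to 5 and 11.46, 11.17, 11.22 and 11.09 in uncut replicates 1 to 4. The highest cut array was 0.10 below the lowest uncut array. The log2 fold change was -0.47 with an SE of 0.13 (limma, adjusted p = 0.196 and two-sided exact permutation p = 0.0159), and it ran from -0.52 to -0.39 with single arrays left out. In all of these fits the change was smaller in size than 1.5-fold (fold change 0.723 with all arrays), so no p could have led to a call. With array weights the adjusted p from limma was 0.0661 at a log2 fold change of -0.36, again smaller than 1.5-fold, and *wnt4* was not called either. The ligand genes *wnt2bb* and *wnt9a* had log2 fold changes of 0.17 and -0.30.

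**Figure D4:**
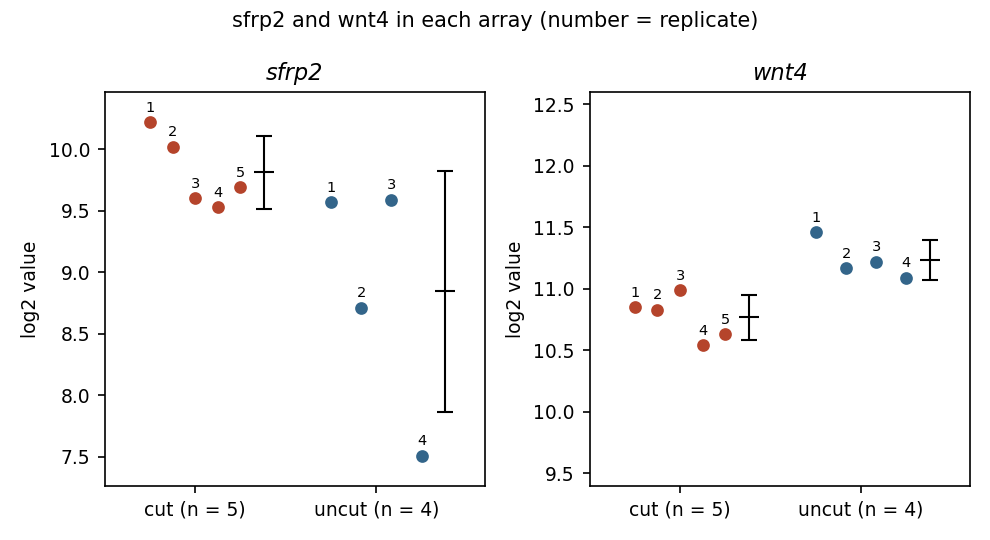
Log2 values (y axis) of *sfrp2* and *wnt4* in the 5 cut arrays (left, red) and the 4 uncut arrays (right, blue), with replicate numbers and the mean ± SD beside each group. The cut arrays of *wnt4* end at 10.99, below the lowest uncut array at 11.09, and the uncut arrays of *sfrp2* run from 7.51 to 9.59.

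No gene of the other groups was called. The receptor genes *fzd3b*, *fzd6* and *fzd10* had log2 fold changes of 0.07, -0.16 and -0.02, and *ptk7a*, which encodes a co-receptor in planar polarity, had 0.12. *rspo3*, which encodes an R-spondin that amplifies Wnt signals at the receptor, was at 8.79 ± 0.16 in cut tails (SD, n = 5) and 8.79 ± 0.13 in uncut tails (SD, n = 4). Besides *nkd1* and *nkd2b*, the Dishevelled-binding genes *dact1* and *dact2* had -0.18 and 0.17. Besides *tcf7*, *tcf7l1a*, which encodes a TCF that represses targets, had 0.03, the β-catenin coactivator genes *bcl9* and *bcl9l* had -0.03 and 0.15, and the corepressor-family gene *tle5* had 0.01. The planar cell polarity genes *vangl2*, *prickle2a* and *celsr2* had -0.02, 0.25 and -0.10, and the caudal homeobox gene *cdx1a*, which acts downstream of Wnt signals in the posterior body, had -0.02. An interval that includes a change of 1.5-fold, as for *ptk7a* with a fold change of 0.706 to 1.67 or *prickle2a* with 0.919 to 1.53, does not show that the gene was unchanged.

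**Figure D5:**
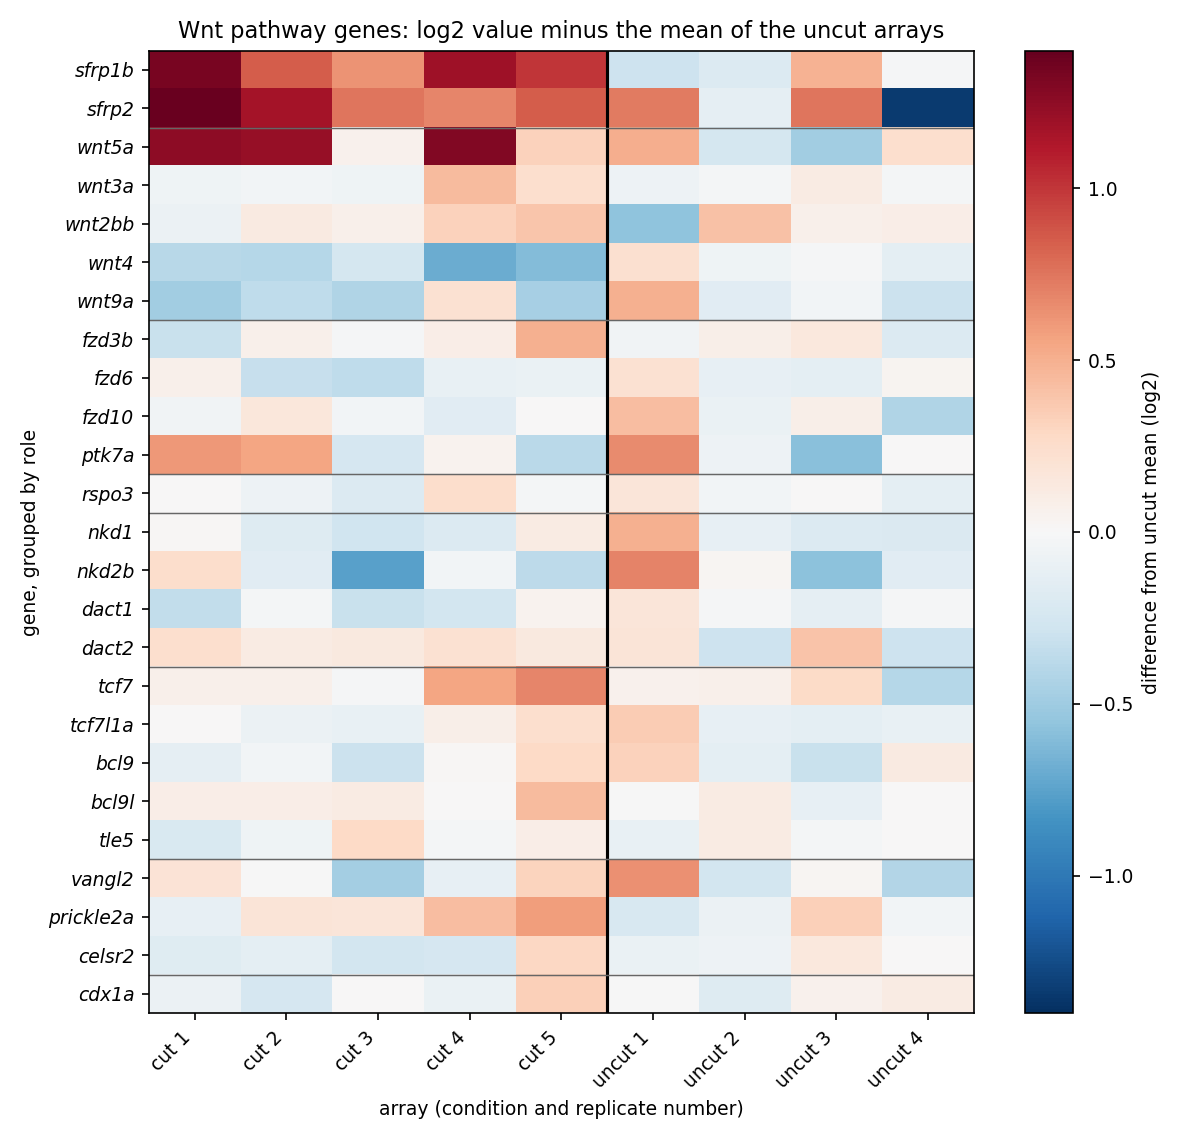
Difference of each log2 value from the mean of the 4 uncut arrays (color) for the 25 Wnt genes (rows, grouped by role) in the 9 arrays (columns; cut arrays left of the black line, uncut arrays right). *sfrp1b* is above the uncut mean in all 5 cut arrays and *wnt4* below it in all 5, and *nkd1* and *nkd2b* are highest in uncut replicate 1.

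The genes that most resembled each Wnt gene were sought among the 2662 other transcripts with an assigned gene by Pearson's r over the 9 arrays, which share both the condition and the normalization of each array. These are descriptions, as the best of many is always high. For *sfrp1b* the highest r was that of *slco2b1*, an organic anion transporter gene, at 0.99 over the values and 0.95 over the deviations from the group means. *slco2b1* had a log2 fold change of 0.57 (adjusted p = 0.113 from limma) and was not called. For *wnt5a* it was *psmd4b*, a proteasome subunit gene, at 0.98 over the values, and *bambib*, which encodes a pseudoreceptor of TGF-β family ligands, at 0.98 over the deviations. *bambib* had a log2 fold change of -0.40 (adjusted p = 0.522 from limma), so it resembled *wnt5a* among replicates and not between conditions.

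For *wnt3a* the closest genes were *plxnd1*, a semaphorin receptor gene, at 0.97 over the values and *mif4gdb* at 0.98 over the deviations. For *tcf7* it was the Src-family kinase gene *fynb*, at 0.92 over the values and 0.91 over the deviations. For *nkd1* they were the synaptic scaffold gene *homer2* at 0.94 over the values and *ext1c* at 0.96 over the deviations. For *nkd2b* it was *bcam*, a cell adhesion gene, at 0.97 over both. The next genes in order over the values were *calm2b* and *rab23* for *sfrp1b* (both 0.92), *ap3s1* (0.93) and *si:ch73-314g15.3* (0.91) for *wnt5a*, *avil* and *mif4gdb* for *wnt3a* (both 0.96), *ora2* and *dachd* for *tcf7* (both 0.91), *ext1c* (0.94) and *mycbp2* (0.93) for *nkd1* and *creb3l2* and *tcf3a* for *nkd2b* (both 0.94). Over the deviations they were *ankrd52a* (0.92) and *rilpl2* (0.91) for *sfrp1b*, *tbc1d7* (0.97) and *plekhs1.3* (0.96) for *wnt5a*, *zgc:162872* and *plxnd1* for *wnt3a* (both 0.97), *ora2* (0.91) and *dachd* (0.90) for *tcf7*, *homer2* and *lima1a* for *nkd1* (both 0.94) and *mef2ca* (0.96) and *creb3l2* (0.94) for *nkd2b*. None of the other Wnt genes stood among the closest genes of any of the 6. With only the first 3 of 2662 genes kept each time, this absence says little about whether Wnt genes vary together.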

How the data were processed

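RNA of posterior tissue from 5 cut and 4 uncut samples was amplified in 2 rounds and hybridized to NimbleGen zebrafish arrays. The deposited values are log2 expression values, for which the authors used RMA background correction and a step named quartile normalization in ArrayStar, and no source used here says how several probes became 1 transcript value. The values, 3.17 to 15.99 with array medians of 8.54 to 8.63, were used as deposited, and RMA also stands in the submitters' processing notes.

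Genes were named through unversioned RefSeq mRNA accessions and the RefSeq annotation of GRCz12tu. Of 3055 such identifiers, 2663 matched. A listed gene without a match is not analysed here. All 37176 transcripts were fitted in limma (version 3.58.1, R 4.3.3) with condition as the only term, empirical Bayes variances and Benjamini-Hochberg adjustment. The model was also run on simulated data with independent noise for each value. Such data hold no differences shared within an array or a replicate number, so that run does not measure false calls in these arrays. Exact permutation tests were two-sided, on the absolute difference of means over 126 arrangements. Precision is limited by the number of arrays.

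The members, the lists and the tests were chosen with earlier results of these data known. All members were named, all other measured Wnt genes, and for each member the 3 assigned genes of highest Pearson's r over values and over deviations from the group means. Alternatives were the replicate block, quantile normalization, centering, filters on the lowest 25% and the lower 50% by mean value, variance models with a trend or robust, array weights, an offset of 50, transcripts of a gene averaged, other thresholds, single arrays left out, and cut replicates 3 and 5 left out. Leaving out cut replicate 3 with uncut replicate 1 was added after seeing the data. All 9 arrays entered the comparison.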

Additional observations from a re-analysis of the deposited data

Results flagged for a closer look

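Of 56 groups of arrays examined for a value far from the rest of its group (Dixon's test, for the 25 Wnt genes and the median of each marker list with at least 3 measured genes), 6 held one, where chance gives about 1 in 20 groups, or 2.8. *nkd1* had a log2 value of 12.11 in uncut replicate 1, while the other uncut arrays had 11.41 to 11.50. *tcf7l1a* had 11.48 in the same array, against 10.99 to 11.03. The median of macrophage and neutrophil genes was 7.53 there, against 7.88 to 7.94 elsewhere among uncut arrays. Among the cut arrays, *wnt9a* had 6.20 in cut replicate 4, against 5.50 to 5.63. In cut replicate 5, *bcl9l* had 8.74, against 8.30 to 8.42, and *celsr2* had 6.40, against 5.85 to 5.97.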

How the results depend on the processing

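Over 23 alternatives that could be computed, *sfrp1b* kept a positive log2 fold change, 0.88 to 1.17 (0.91 to 1.17 with single arrays left out), and was called in 12. The direction was fixed for arrays left out, since its groups do not overlap. *sfrp1b* was not called in 11 of the 23 alternatives. Its call was lost with the replicate block, with an adjusted p of at most 0.05 (1.00) and without cut replicates 3 and 5 (1.12). It was also lost without cut replicate 3 and uncut replicate 1 (1.00), and only 2 of the 9 fits with 1 array left out kept it. Among the settings that kept the call, no minimum fold only loosens the rule. Averaging transcripts leaves the values of a gene with 1 assigned transcript as they are. The filter on the lower 50% leaves *sfrp1b* out. *wnt5a*, at 0.66 to 1.25 over 24 alternatives, was called with array weights (0.96, adjusted p = 0.0545 from limma) and with the replicate block, given below. *wnt3a* (0.02 to 0.14; both filters leave it out) and *tcf7* (0.14 to 0.36) were called in none of 22 and 24. The stricter thresholds among these could not have added a call. *nkd1*, -0.10, turned to 0.11 without cut replicate 3 and uncut replicate 1 and ran from -0.17 to 0.06 with single arrays left out. *nkd2b*, -0.22, turned to 0.15 and 0.02 without the same 2 arrays and without cut replicates 3 and 5, and ran from -0.41 to 0.02 with single arrays left out. Of the 19 other Wnt genes, 1 (*sfrp2*) was called with array weights, a setting that called 7.07% of all transcripts, and 0 in the other 22 alternatives.

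A block for replicate number was fitted to the 8 arrays of shared numbers: *wnt5a* was called (0.96, SE 0.17, adjusted p = 0.0795), *sfrp1b* was not (1.00, SE 0.23, adjusted p = 0.108), and 674 transcripts were called. No label or method says what a shared number means. Deviations of same-numbered arrays correlated at 0.58, 0.09, 0.25 and 0.32 over 9 arrays and at 0.59, 0.21, 0.24 and 0.35 over the 8, with every array closest to its own number among arrays of the other condition. The limit for pairing, 0.1, was missed by 1 pair in the version with 9 arrays, which was followed with the block counts known. The 259 calls over all transcripts became 2628 with array weights, 119 at an adjusted p of at most 0.05, 128 at a fold of at least 2, 114 without cut replicates 3 and 5, and 54 (without uncut replicate 4) to 870 (without uncut replicate 3, 37.5% of them higher) with single arrays left out. The causes were not tested.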

Other observations

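Cut replicate 3, which had the most lens signal, was the lowest of the cut arrays for 5 of the 6 Wnt genes (*sfrp1b*, *wnt5a*, *tcf7*, *nkd1* and *nkd2b*) and for 11 of the 25 measured genes of the pathway, or 44%, while it was the lowest cut array for 24.3% of all transcripts. Cut replicate 5 was the highest cut array for 12 of the 25, or 48%, against 26% of all transcripts. Among uncut arrays, replicate 1 was the highest for 13 of the 25, or 52%, against 32.6% of all transcripts, and for *wnt5a*, *nkd1* and *nkd2b* of the 6. The genes of a pathway share each array, so these shares describe the arrays, and they were not tested.

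The macrophage gene *mfap4.1* was at 11.14 ± 0.76 in cut tails (SD, n = 5) and 9.55 ± 0.34 in uncut tails (SD, n = 4), a log2 fold change of 1.59 (adjusted p = 0.121 from limma), and the myeloid transcription factor gene *spi1b* had 1.25 (adjusted p = 0.112 from limma). Neither was called.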
